A study of Mus musculus with 4 samples.

Results

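Aminoacyl-tRNA synthetases attach each amino acid to its matching tRNAs, and so supply the ribosome with charged tRNA. In animals most amino acids have a pair of nuclear genes, one for the enzyme of the cytosol and one, usually marked by a final 2 in the symbol, for the enzyme of the mitochondrion. Several of the cytosolic enzymes are held together with scaffold proteins in a multi-synthetase complex. Deaf1 is a transcription factor that binds DNA through a SAND domain and is known to recognise TTCG.

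Occupancy of Deaf1 at these genes was read from chromatin immunoprecipitation followed by sequencing (ChIP-seq) in C2C12, a mouse myoblast cell line (myoblasts are the precursors of muscle fibres). The series holds 2 ChIP libraries made with an anti-Deaf1 antibody and 2 input libraries made with no antibody, all from the same line with no treatment named, so no change between conditions was measured. The cells were formaldehyde-fixed and sonicated per the labels, which also use the word native, and this conflict was not settled. Separate cultures are not named, so the spread between the 2 ChIP libraries may be technical. The synthetase genes were chosen by symbol: an amino acid letter followed by ars and then nothing, 1 or 2, together with Eprs, Farsa, Farsb and Tarsl2. The genes described here are 37 of the 21887 protein-coding genes on chromosomes 1 to 19, X and Y. Of them, 19 encode cytosolic enzymes, 16 mitochondrial enzymes and 2 (Gars and Kars) enzymes used in both compartments. A gene was counted as bound where a listed peak or region came within 1 kb of either end of its span. The term region is used for the rows of the combined list of both libraries, and peak for the rows of each library's own list.

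The DNA is shown first for the genes whose replicate 2 summit lay inside a RefSeq promoter, so their location follows from that choice. At Aars, Dars and Ears2 the listed summits lay outside the promoter entry. Summits are the positions of highest ChIP coverage within a peak. RefSeq promoters (GRCm38.p6, from 250 bases before to 50 bases after a start) were found for 28 of the 37 genes, and not for Cars, Hars, Hars2, Lars, Nars, Pars2, Rars, Vars and Wars. Each line gives the 81 bases centred on the replicate 2 summit, or as many of them as the promoter holds, in the direction of the gene. The summit is base 41 of each line. Capitals mark TTCG (or CGAA, the same letters on the other strand) and CCGGAAG (or CTTCCGG), the core bound by factors of the ETS family. The positions, with strand, are chr8:84856920-84857000 plus for Farsa, chr10:127311762-127311842 minus for Mars1, chr1:55237034-55237114 plus for Mars2, chr4:34614894-34614974 plus for Rars2, chr8:112011305-112011381 minus for Kars, chr4:129189777-129189857 plus for Yars and chr1:185362945-185363025 plus for Eprs.
Farsa: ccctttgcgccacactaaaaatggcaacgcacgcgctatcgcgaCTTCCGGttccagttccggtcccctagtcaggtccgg
Mars1: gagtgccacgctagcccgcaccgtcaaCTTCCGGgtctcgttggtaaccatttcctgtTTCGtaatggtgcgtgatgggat
Mars2: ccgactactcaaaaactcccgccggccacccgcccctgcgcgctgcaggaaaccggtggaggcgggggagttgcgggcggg
Rars2: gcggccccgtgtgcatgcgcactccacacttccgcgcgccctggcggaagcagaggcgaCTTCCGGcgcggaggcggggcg
Kars: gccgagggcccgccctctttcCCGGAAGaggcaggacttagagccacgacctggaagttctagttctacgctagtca
Yars: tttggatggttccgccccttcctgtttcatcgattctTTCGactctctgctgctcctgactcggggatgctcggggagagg
Eprs: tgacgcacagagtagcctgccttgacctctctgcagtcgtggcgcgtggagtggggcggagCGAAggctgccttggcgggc

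A TTCG lay in 3 of these 7 windows (Mars1, Yars and Eprs), and its centre was 1.5 bp from the summit at Yars. Eprs is included for its promoter, although its region lies outside the 1 kb rule, as described below. A CCGGAAG lay in 4 of the 7 (Farsa, Mars1, Rars2 and Kars). Without Kars, whose window is cut at the promoter's border, each motif lay in 3 of 6. Among all 1472 replicate 2 summits with a full window inside a protein-coding promoter, 30.0% of windows held TTCG and 46.7% held CCGGAAG. In replicate 1, TTCG lay in 1 of 4 synthetase windows (Mars1) and CCGGAAG in 2 of 4 (Farsa and Mars1), against 272 and 469 of all 971 windows. The replicate 1 window of Eprs held neither. Windows of the same length at the start of all 17492 protein-coding genes with a promoter entry held TTCG in 18.2% and CCGGAAG in 6.46%.

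Deaf1 regions were found at 12 of the 37 synthetase genes (32.4%) in the combined list, against 6.99% of all protein-coding genes. The library lists gave 13 genes (35.1%) in replicate 1, where 7.53% of all genes had a peak, and 17 genes (45.9%) in replicate 2, where 11.2% had one. The shares were thus 4.64, 4.67 and 4.09 times the background. No test was run, because the genes form a list chosen with these data in view. In all, 18 genes had a peak in at least 1 library: 12 in both, 1 in replicate 1 alone and 5 in replicate 2 alone. The other 19 had none. The irreproducible discovery rate (IDR) given here is the global value, the expected share of irreproducible regions among those ranked at least as high. At an IDR of at most 0.05, which is a score of at least 540 in the combined list, 2 of the 37 genes remained (5.41%), Rars and Farsa. The share of all genes was then 3.13%, so at that threshold the list stood close to its background.

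**Figure D1:**
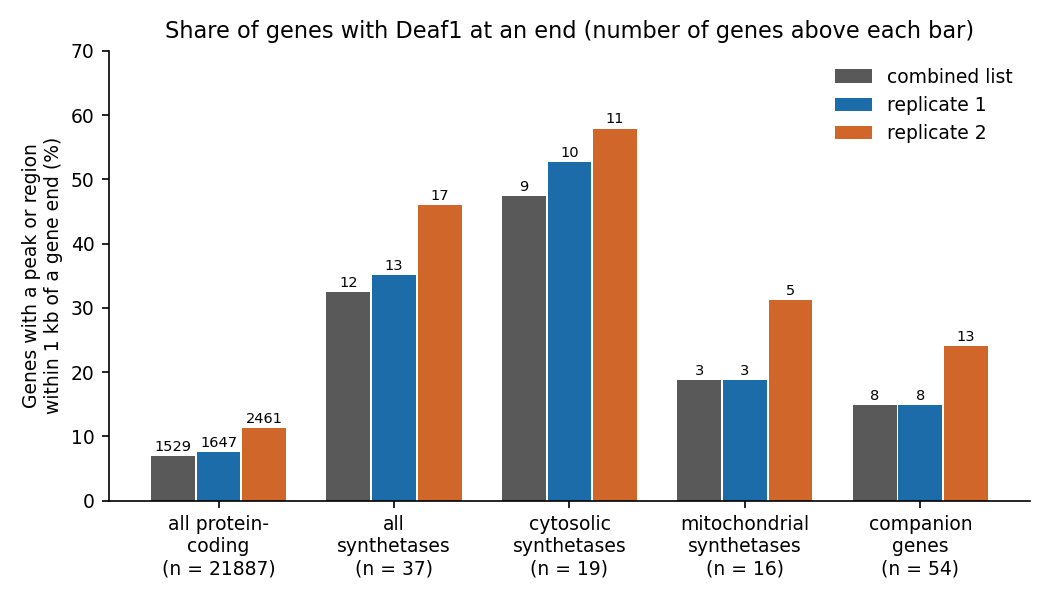
Share of genes (percent, bars from 0) with a Deaf1 region or peak within 1 kb of a gene end, for the combined list, replicate 1 and replicate 2; the number of genes stands above each bar and n is the size of each list. The 37 synthetase genes stand at 32.4%, 35.1% and 45.9%, above the 6.99%, 7.53% and 11.2% of all protein-coding genes, and the cytosolic synthetases are the highest bars.

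The peaks at the bound synthetase genes had medians of height and length near those of all peaks at gene ends. Fold enrichment is the authors' ratio of ChIP signal over the local background, and its values fit a ratio with 1 added to each of them. Its median was 6.31 over the 12 synthetase peaks of replicate 1 and 7.28 over all 1393 peaks at gene ends of that library. In replicate 2 it was 6.96 over 16 synthetase peaks and 6.87 over 2155 peaks at gene ends. The number of ChIP fragments stacked at the summit, the pileup, had a median of 21.5 in replicate 1 and 24.5 in replicate 2, against 24 and 25 at all gene ends. Peak lengths had medians of 122.5 bp and 140 bp in the respective libraries, against 132 bp and 149 bp at all gene ends. Of the 11 distinct regions at synthetase genes, 2 (18.2%) had a score of at least 540, against 42.2% of the 1249 regions at all gene ends.

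Rars, which encodes the cytosolic arginine enzyme and a member of the multi-synthetase complex, had the strongest region of the group. It lay on chromosome 11 from 35834449 to 35834657, with summits 9 bp and 36 bp outside the gene's end. Replicate 1 gave a fold enrichment of 14.6 from 40 fragments (95% limits 28.6 to 54.5, exact Poisson), and replicate 2 gave 17.2 from 52 fragments (38.8 to 68.2). The mean was 15.9 ± 1.8 (SD, n = 2). Such limits cover counting error only. The peak was higher than 93.4% of the gene-end peaks of replicate 1 and 96.3% of those of replicate 2, and the region's IDR was 0.00912. Rars was the one synthetase gene with a score above 830.

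Farsa came next. It encodes the catalytic alpha subunit of the cytosolic phenylalanine enzyme, a tetramer of alpha and beta chains. Its region spanned chromosome 8 from 84856851 to 84857044, with summits 1 bp and 9 bp from the gene's end. The fold enrichment of 11.1 in replicate 1 rested on 30 fragments (limits 20.2 to 42.8) and that of 14.6 in replicate 2 on 44 fragments (32.0 to 59.1). The mean was 12.8 ± 2.5 (SD, n = 2) and the IDR 0.0117. Both libraries thus placed the peak on the start of the gene, and their pileup limits overlapped. An end of 1700122E12Rik, a long non-coding RNA gene, was 305 bp from the replicate 1 summit and 295 bp from the replicate 2 summit. Farsb, the gene of the beta subunit on chromosome 1, had no peak in either library, and the nearest one was 1287 kb away.

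Farsa is the strongest synthetase peak with a RefSeq promoter, so its promoter is shown whole (chr8:84856736-84857035, plus strand, capitals as above). It contains CCGGAAG once and TTCG nowhere within its 300 bases.
Farsa promoter: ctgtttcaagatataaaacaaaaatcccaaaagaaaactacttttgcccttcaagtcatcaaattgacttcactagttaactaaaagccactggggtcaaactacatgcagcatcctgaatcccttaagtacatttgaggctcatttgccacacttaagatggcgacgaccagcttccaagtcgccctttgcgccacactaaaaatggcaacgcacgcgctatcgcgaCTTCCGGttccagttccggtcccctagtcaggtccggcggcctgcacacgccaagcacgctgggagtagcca

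Cars, the cytosolic cysteine enzyme, had a region on chromosome 7 from 143600034 to 143600151. The fold was 7.14 in replicate 1 (19 fragments) and 9.39 in replicate 2 (28 fragments), which averaged 8.26 ± 1.59 (SD, n = 2) at an IDR of 0.0589. An end of Gm15579, a long non-coding RNA gene, was 23 bp from the replicate 1 summit and 7 bp from the replicate 2 summit. The region therefore cannot be given to Cars alone. Lars encodes the cytosolic leucine enzyme, which is also known as a leucine sensor in the mTORC1 pathway and sits in the multi-synthetase complex. Its region on chromosome 18 from 42262112 to 42262304 had a fold enrichment of 8.57 in replicate 1 (24 fragments) and 7.41 in replicate 2 (25 fragments), which averaged 7.99 ± 0.81 (SD, n = 2). At these genes the libraries differed by 1.32 times or less, and each summit was within 9 bp of the gene's end.

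Aars, the cytosolic alanine enzyme, had a region on chromosome 8 from 111027741 to 111027868 at the first base of its annotated span. Fold enrichment there was 5.50 in replicate 1 (19 fragments) and 7.77 in replicate 2 (23 fragments), which averaged 6.64 ± 1.60 (SD, n = 2). The RefSeq promoter of Aars lies further inside the span, on chromosome 8 from 111033592 to 111033891, and carried no peak. Nars, the cytosolic asparagine enzyme, was low and even, with 6.34 in replicate 1 (17 fragments) and 6.51 in replicate 2 (20 fragments). Its region on chromosome 18 from 64516538 to 64516706 lay outside the gene, with summits 128 bp and 104 bp from the end.

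Mars1 and Mars2, the cytosolic and mitochondrial methionine enzymes, were both bound, on different chromosomes. The Mars1 region, on chromosome 10 from 127311665 to 127311876, had a fold enrichment of 4.82 in replicate 1 (25 fragments) and 5.59 in replicate 2 (37 fragments). The Mars2 region, on chromosome 1 from 55237047 to 55237184, had 5.35 in replicate 1 (14 fragments, the fewest among the synthetase peaks) and 4.93 in replicate 2 (23 fragments). Their mean folds, 5.20 at Mars1 and 5.14 at Mars2, were the lowest of the genes with a peak in both libraries. At Mars1 the low fold came with a high background (4.39 and 5.80 fragments in the respective libraries). Its replicate 2 pileup was below those of Rars and Farsa alone. The Mars2 region had the lowest score of the combined list (121, an IDR of 0.513). That score was shared by Wars and Nars, and by 21.8% of the regions at all gene ends.

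Hars and Hars2, the cytosolic and mitochondrial histidine enzymes, share 1 region, so they are not independent members. Their annotated spans overlap on chromosome 18, with Hars ending at 36783205 and Hars2 beginning at 36783202, and the region from 36783143 to 36783283 covers both ends. Replicate 1 gave 5.19 from 27 fragments (limits 17.8 to 39.3) and replicate 2 gave 11.2 from 34 fragments (23.5 to 47.5), which averaged 8.18 ± 4.22 (SD, n = 2). The pileups differed by 1.26 times, while the local background was 4.39 fragments in replicate 1 and 2.14 in replicate 2. The lower fold of replicate 1 thus came with a similar pileup and a higher background.

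Wars, the cytosolic tryptophan enzyme, showed the widest gap between the libraries. Its peak had a fold of 3.52 in replicate 1, from 18 fragments (limits 10.7 to 28.4), and of 10.7 in replicate 2, from 32 fragments (21.9 to 45.2), a ratio of 3.03. The pileup ratio was 1.78 and the background was 4.39 fragments in replicate 1 and 2.09 in replicate 2. The region, on chromosome 12 from 108894080 to 108894321, also covers an end of Wdr25, which was 14 bp from the replicate 1 summit and 5 bp from the replicate 2 summit. It therefore cannot be given to Wars alone.

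Pars2, the mitochondrial proline enzyme, went the other way, with a fold enrichment of 8.25 in replicate 1 (29 fragments) and 4.28 in replicate 2 (24 fragments). The background was here the higher in replicate 2, at 4.84 fragments against 2.64. The region lay on chromosome 4 from 106650878 to 106651003, about as far from the gene in both libraries (111 bp and 109 bp). Across the 12 genes with a peak in both libraries, fold enrichment differed by over 1.5 times at 4 (Wars, Hars, Hars2 and Pars2). The pileup limits overlapped at 12 of 12. Hars and Hars2 share 1 peak in each library, so these are counts of genes and not of separate sites. The SD of the log2 ratio between libraries was 0.67 over the 11 synthetase regions and 0.52 over the 1249 regions at all gene ends. Replicate 2 had the higher fold at 8 of the 11 (72.7%), against 64.6% at all gene ends.

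**Figure D2:**
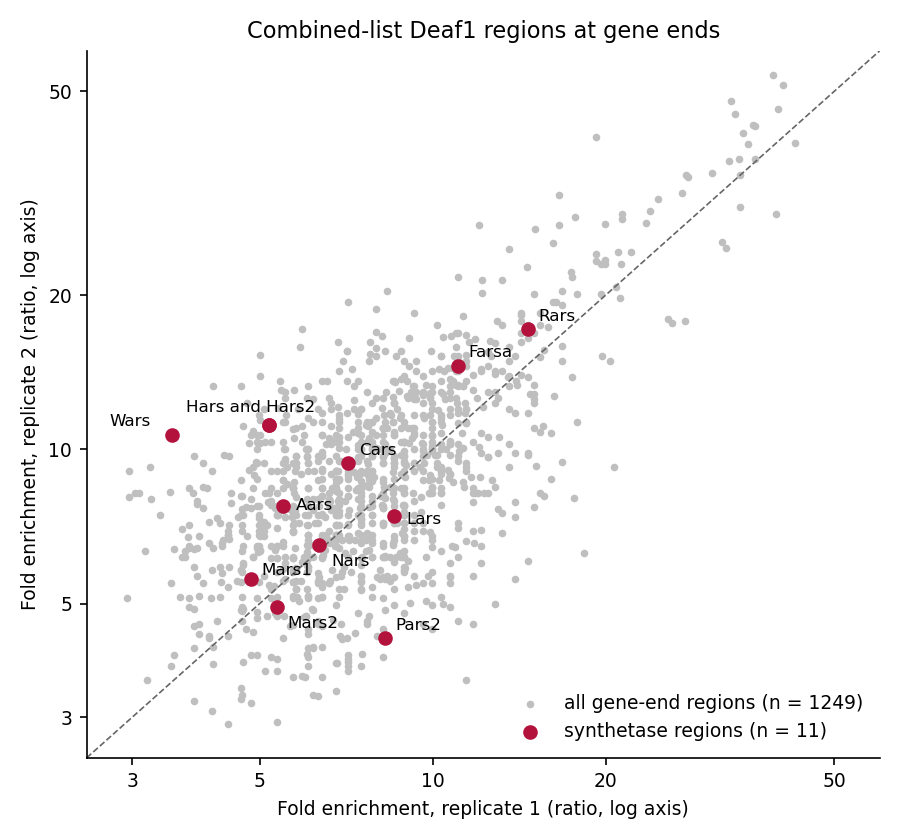
Fold enrichment (ratio, log axes) of each region of the combined list at a protein-coding gene end, whatever its IDR, replicate 1 on the x axis and replicate 2 on the y axis; grey points are all 1249 regions, red points the 11 regions at synthetase genes, and the dashed line marks equal values. Rars (14.6 and 17.2) and Farsa (11.1 and 14.6) are the highest synthetase points, and of the red points Wars (3.52 and 10.7) lies farthest above the line.

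Eprs fell just outside the rule. It encodes the fused glutamate and proline enzyme of the cytosol, a component of the multi-synthetase complex. Its region on chromosome 1 from 185362839 to 185363125 began 1422 bp inside the annotated span, yet it lay on the RefSeq promoter of the gene (chr1:185362794-185363093), since the span also holds an earlier start. Replicate 1 gave 9.28 from 25 fragments (limits 16.2 to 36.9) and replicate 2 gave 4.80 from 27 fragments (17.8 to 39.3). The mean was 7.04 ± 3.17 (SD, n = 2) and the IDR 0.324. The pileups differed by 1.08 times, and the background was 1.80 fragments in replicate 1 and 4.84 in replicate 2. Counting RefSeq starts as well as gene ends gave 13 synthetase genes (35.1%) against 7.49% of all genes.

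Peaks that 1 library listed and the other did not were found at 6 genes. Rars2, the mitochondrial arginine enzyme, had a fold enrichment of 10.4 in replicate 2 (31 fragments, limits 21.1 to 44.0) on chromosome 4 from 34614875 to 34615004. It ranked 17th by fold among the 896 peaks at gene ends that replicate 2 did not share with replicate 1, whose median was 5.83. The other 4 in replicate 2 were weaker. They were Ears2 (mitochondrial glutamate enzyme, fold enrichment 6.48), Yars (cytosolic tyrosine enzyme, 6.15), Kars (lysine enzyme of both compartments, 6.15) and Vars (cytosolic valine enzyme, 5.83). A missing peak means that the library's list has no row there, and the signal in that library is not known.

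The Rars2 promoter (chr4:34614707-34615006, plus strand) is printed because it is the strongest synthetase site seen in 1 library alone. TTCG occurs in it 2 times, in both cases upstream of the 81-base window at the summit, and CCGGAAG once.
Rars2 promoter: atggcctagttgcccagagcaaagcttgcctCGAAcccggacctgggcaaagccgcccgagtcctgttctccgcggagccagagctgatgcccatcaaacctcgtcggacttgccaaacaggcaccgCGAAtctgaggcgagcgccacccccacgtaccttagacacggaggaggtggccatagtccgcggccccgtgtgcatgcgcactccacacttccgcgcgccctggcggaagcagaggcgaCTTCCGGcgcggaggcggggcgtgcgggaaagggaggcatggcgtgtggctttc

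Dars, the cytosolic aspartate enzyme of the multi-synthetase complex, was the single gene with a peak in replicate 1 alone. Its fold enrichment was 6.27 (18 fragments, limits 10.7 to 28.4) on chromosome 1 from 128416825 to 128416921, and its summit was 536 bp inside the gene, the farthest of the group. Kars had a row of replicate 1 just beyond the 1 kb limit, 1082 bp from its other end, with a fold enrichment of 8.57. That summit was 9 bp from an end of Adat1, a tRNA adenosine deaminase.

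**Figure D3:**
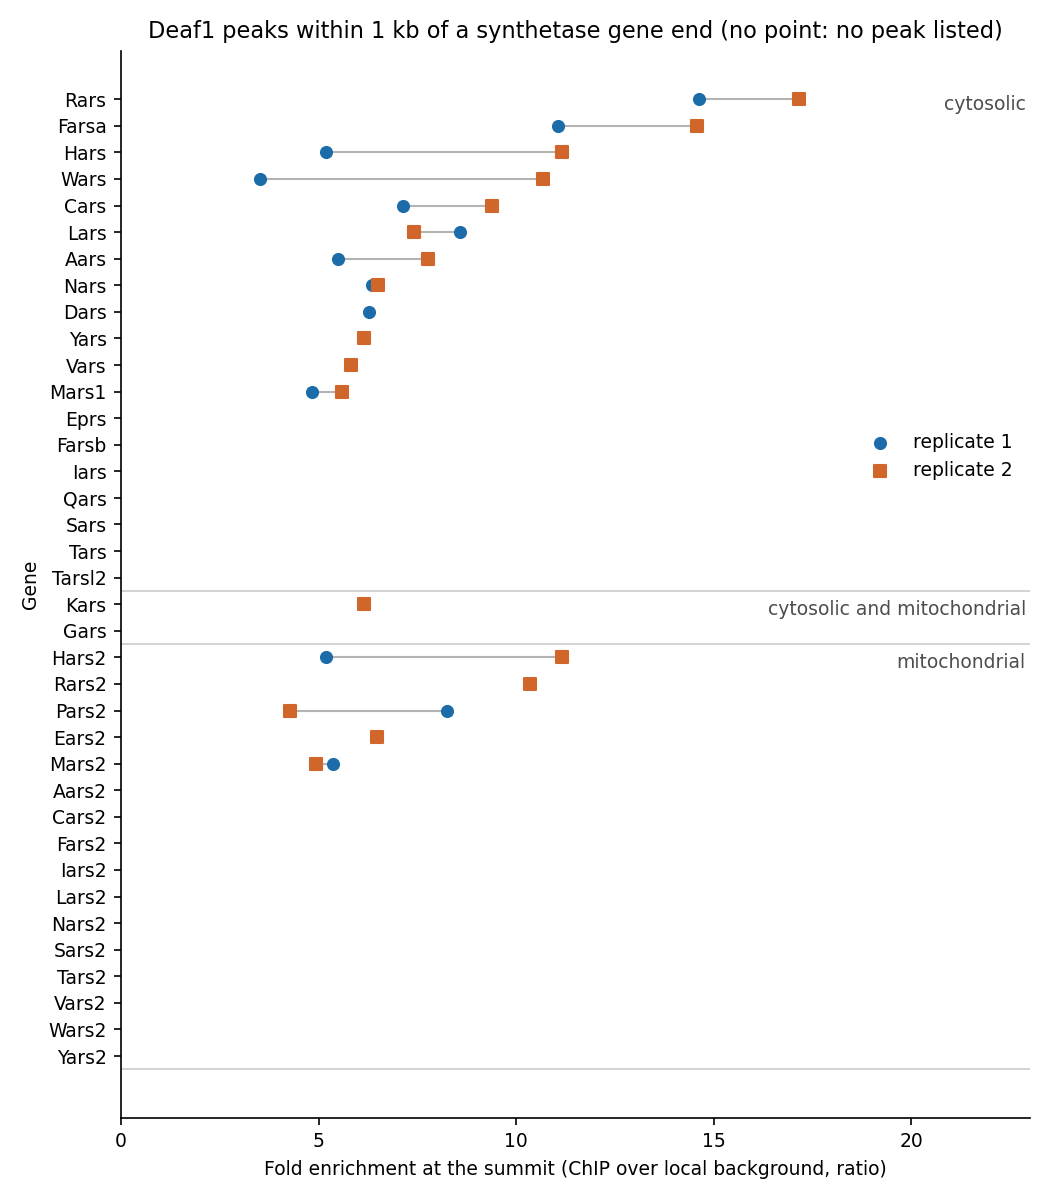
Fold enrichment at the summit (ratio, x axis) for each of the 37 synthetase genes (y axis), grouped by compartment; circles are replicate 1, squares replicate 2, a grey line joins the values of 1 gene and a gene without a point has no peak within 1 kb of an end. Values run from 3.52 at Wars to 17.2 at Rars, and 19 genes have no point.

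The peaks of replicate 2 alone shared a feature with each other that most synthetase peaks found in both libraries lacked. An end of another protein-coding gene was within 1 kb of 5 of 5 of them, against 2 of the 11 synthetase peaks of replicate 2 that overlap replicate 1. Over all gene-end peaks of replicate 2, 25.8% of the 896 unshared and 27.8% of the 1259 shared peaks had a second gene within that distance. The neighbour's end was 29 bp from the summit at Rars2 (Orc3), 18 bp at Kars (Terf2ip), 137 bp at Vars (D17H6S56E-5), 152 bp at Yars (S100pbp) and 269 bp at Ears2 (Ubfd1). At Ears2 the neighbour's end was the closer. These peaks cannot be given to 1 gene of each pair. The observation was made after the values were seen and was not tested.

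Summits kept close to gene ends. The median distance from the nearer end was 9 bp over the 13 genes with a peak in replicate 1 and 23 bp over the 17 in replicate 2. It was at most 150 bp at 12 of 13 and 16 of 17 genes. Among all gene-end peaks, 76.2% in replicate 1 and 73.6% in replicate 2 lay that close to an end of some protein-coding gene. Between libraries, the summits of a synthetase region listed in both were 1 to 27 bp apart, with Mars1 the closest and Rars the farthest.

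**Figure D4:**
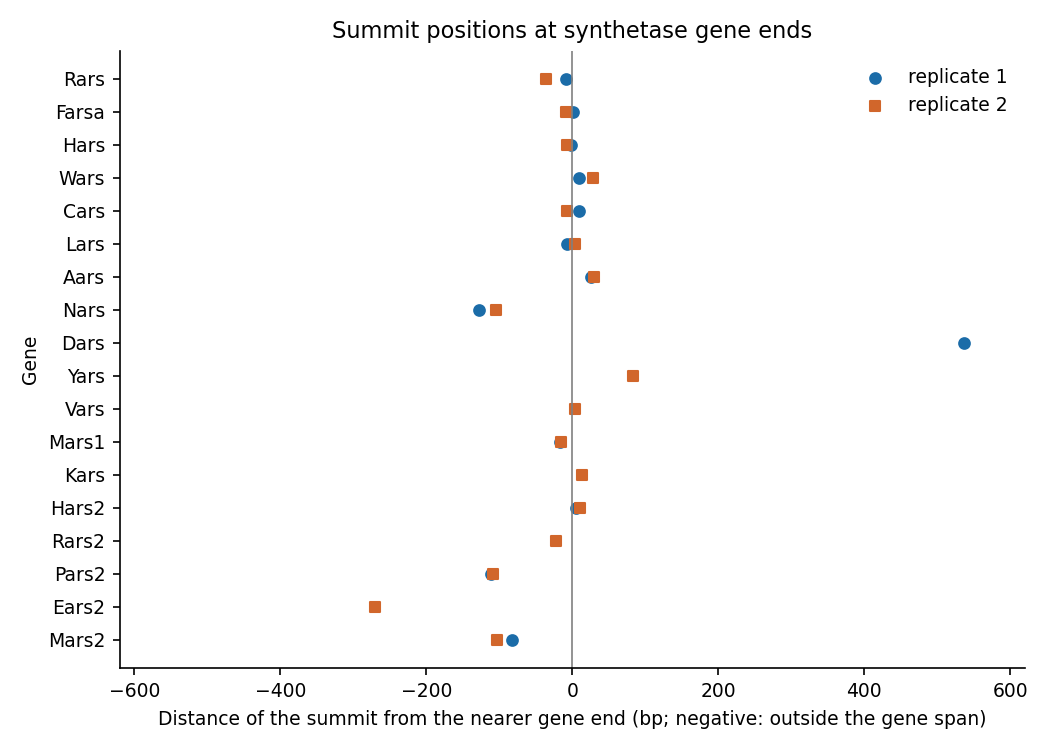
Distance of each peak summit from the nearer end of the gene's span (bp, x axis; negative values are outside the span) for the 18 synthetase genes with a peak (y axis); circles are replicate 1 and squares replicate 2. Most summits stand within 150 bp of the end, and Dars (536 bp inside) and Ears2 (270 bp outside) lie beyond it.

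By compartment, 9 of the 19 cytosolic genes (47.4%) had a region of the combined list, against 6.99% of all protein-coding genes. So did 3 of the 16 mitochondrial genes (18.8%: Mars2, Hars2 and Pars2) and 0 of the 2 shared genes. In replicate 2 the numbers were 11 cytosolic (57.9%), 5 mitochondrial (31.2%) and 1 shared, Kars, against 11.2% of all protein-coding genes. The region of Hars2 is also that of Hars, so it counts in both compartments, here and for histidine below. Whether the compartments differ was not tested. Of the 16 amino acids whose separate mitochondrial gene is described here, the combined list covered both compartments for 2 (methionine and histidine), the cytosol alone for 7, the mitochondrion alone for 1 (proline) and neither for 6. Within the multi-synthetase complex, 3 of 8 synthetase genes had a region (37.5%: Mars1, Rars and Lars), against the same 6.99% of all genes. By catalytic class, 6 of 18 class I genes and 6 of 18 class II genes had one (33.3% in each class). For glutamate, for proline and in these groupings, Eprs counted as a gene without a region. It had a region on its RefSeq promoter, outside the 1 kb rule. The groupings by complex and class were made after the values were seen.

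The 19 genes without a peak within 1 kb of an end were Eprs, described above, and Farsb, Iars, Qars, Sars, Tars and Tarsl2 of the cytosol, Gars of both compartments, and Aars2, Cars2, Fars2, Iars2, Lars2, Nars2, Sars2, Tars2, Vars2, Wars2 and Yars2 of the mitochondrion. Apart from Eprs, their nearest listed peak was between 16.5 kb (Cars2) and 1844 kb (Gars) away. For isoleucine, serine and threonine, neither the cytosolic nor the mitochondrial genes had a peak in either library.

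TTCG was common in synthetase promoters whether or not a peak covered them. It occurred in 6 of the 8 promoters covered by a peak of either library (75%) and in 14 of the 20 without one (70%), against 48.8% of all 17492 protein-coding promoters. The covered promoters were those of Ears2, Eprs (outside the 1 kb rule), Farsa, Kars, Mars1, Mars2, Rars2 and Yars. The others included Aars and Dars, whose peaks lay off the promoter. Most genes with a region of the combined list had no promoter entry, so these shares do not compare bound with unbound genes. Of all 1952 promoters covered by a peak of either library, 72.2% held it. The longer TTCGG, which contains TTCG, occurred in 0 of the 8 covered and 5 of the 20 uncovered synthetase promoters, against 38.8% of all covered promoters and 21.8% of all promoters. CCGGAAG occurred in 5 of the 8 and 4 of the 20, against 53.4% of all covered promoters and 12.1% of all promoters. Median GC content was 62.8% in the covered and 56.8% in the uncovered synthetase promoters, with medians of 28 and 16.5 CpG pairs. Over all protein-coding promoters the medians also differed, at 60.7% and 23 pairs in the covered and 55.3% and 10 in the uncovered. TGATGCAA, a core of the amino acid response element bound by Atf4, occurred in 4 of 28 synthetase promoters (Aars, Iars, Tars and Yars), against 0.903% of all promoters. Of these, the promoter of Yars carried a peak. Motifs were searched on both strands, neither TTCG nor CCGGAAG contains the other on either strand, and a match is a description of the letters and not of a binding site.

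Genes that work beside the synthetases were bound at 8 of 54 (14.8%) in the combined list, against 6.99% of all genes, and at 13 (24.1%) in replicate 2, against 11.2%. Of the 8, those with a score of at least 540 were Ptrh2, Ptrhd1, Elac2 and Tsen34, a threshold that 3.13% of all genes passed. The regions of Aimp1, Gatb, Thg1l and Atf4 repeated less well, with IDRs of 0.263, 0.513, 0.224 and 0.257. Among the 3 scaffold genes of the multi-synthetase complex, Aimp1 had a region. Its fold enrichment averaged 6.85 ± 0.98 (SD, n = 2), and its summits were 8 bp and 4 bp from an end of Tbck. Of 7 genes for editing or release of aminoacyl- and peptidyl-tRNA, the peptidyl-tRNA hydrolase gene Ptrh2 (9.41 ± 0.70, SD, n = 2) and the related Ptrhd1 (9.11 ± 1.77, SD, n = 2) had one, both nearer to a neighbour's end (Vmp1 and Cenpo). Of the 4 accessory genes of mitochondrial charging, Gatb, a subunit of the glutamyl-tRNA amidotransferase, had one at 3.99 ± 0.94 (SD, n = 2). None of the 3 genes for selenocysteine charging had a row in any list.

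For tRNA end maturation and export, 3 of 22 genes (13.6%) had a region: Elac2, the 3′ processing nuclease (7.14 ± 0.40, SD, n = 2), Thg1l, a tRNA-histidine guanylyltransferase (6.24 ± 3.08, SD, n = 2), and Tsen34, a subunit of the splicing endonuclease. Tsen34 had the highest value of these companion genes, with 22.1 in replicate 1 (61 fragments) and 24.3 in replicate 2 (74 fragments), but an end of Mboat7 was closer to its summits. Of 15 genes of the amino acid response, the pathway that raises synthetase transcription when amino acids run short, 1 had a region (6.67%, close to the background). It was Atf4, the pathway's transcription factor, with a fold enrichment of 3.92 in replicate 1 (27 fragments) and 6.78 in replicate 2 (32 fragments) on chromosome 15 from 80255087 to 80255501.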

How the data were processed

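Deaf1 ChIP-seq peak lists of 2 ChIP libraries and their combined list were analysed. No file of the 2 input libraries was analysed here. The submitters' processing notes name FastQC 0.11.8, BWA 0.7.17-r1198, MACS2 2.1.2 and the build mm10, with no settings. The deposited fold enrichment is a linear ratio at the summit, and the deposited p- and q-values are −log10 values. The deposited combined list carries an IDR score for the pair, and its 6 unnamed columns for single libraries were not used. The fold was read as the pileup plus 1 over the background plus 1. Summit pileup and background were recovered as the whole number that fits both the fold and the Poisson p. This left exactly 1 pileup for 100% of the 1860 and 3126 peaks and was tested on simulated data. Gene spans and promoters came from RefSeq (GRCm38.p6). The span table has no strand, so gene ends mix starts and stops. The lowest background was 1.80 and 2.09 fragments, and the median summit held 22 and 23, which sets the counting error. Of the genes that fit the symbol rule, 1 is not reported here. Every other synthetase gene is named, with further genes as neighbours or from companion lists. Members and lists were chosen with earlier results of these data known. No set test was run. Alternatives covered the window, the part of the gene, the score and q thresholds and each library alone. Python 3.11.15, scipy 1.17.1 and matplotlib 3.10.9 were used.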

Additional observations from a re-analysis of the deposited data

How the results depend on the processing

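The number of synthetase genes with a region (12) stayed at 12 with a 500 bp window or with summits. It was 13 with a 5 kb window or the whole span. All genes then stood at 6.53% (500 bp), 6.87% (summits), 8.77% (5 kb) and 7.68% (span), against 6.99% in the main count. The synthetase count was 17 without replicate 1 and 13 without replicate 2, where all genes went from 1529 to 2461 and 1647. An IDR score of at least 540 left 2 synthetase genes and 685 of all genes, and a score of at least 830 left 1 and 86, since 608 and 75 of the 1550 regions pass. Counting the RefSeq start alone was possible for the 28 genes with an entry. It left 4 genes in the combined list, 5 in replicate 1 and 8 in replicate 2. These were 14.3%, 17.9% and 28.6% of the synthetases, against a background of 7.31%, 7.82% and 11.9%. Rars, Wars, Hars, Hars2, Lars, Nars, Pars2 and Cars have a region but no entry. They dropped out for that reason, and not because their regions lay off a start. Adding RefSeq starts to gene ends, an alternative chosen after seeing the data, brought in Eprs. A −log10 q of at least 5 left 11 genes in replicate 1 and 17 in replicate 2, with a background of 6.78% and 10.1%. Taking the nearest summit changed 0 of 30 fold values. That outcome was fixed in advance, because 0 of the 37 genes had more than 1 peak in a window. At 14 to 52 fragments per summit, counting error is wide for a single gene. No paired analysis was possible because the inputs have no values here and the ChIP libraries form 1 group.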
